A study of Homo sapiens and Mus musculus with 47 samples.

Results

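RNA-seq of HEK293T cells (a human embryonic kidney line) given an antisense oligonucleotide (ASO) against the long noncoding RNA LINC00662 was compared with the same line given a control ASO. The comparison took 6 of the 47 samples of the series, 3 libraries per group, chosen by their titles. A second reference, 3 libraries titled as RNA-seq control, which the study describes as untreated cells, was used to mark which changes held against both. Its counts were deposited in a separate set from those of all the ASO libraries. In comparisons with it, set and treatment cannot be told apart. Another reference, 5 libraries of cells given an ASO against SETD5-AS1 (3) or LINC00641 (2), was used to mark which changes also held against other targeting ASOs. All samples carry the same protocol text, in which Chrom-seq components were expressed for 48 h biotin-aniline was given at 500 µM for 30 min and H2O2, an oxidant, at 1 mM for 1 min, so the labels do not state how the ASO cultures differed from the RNA-seq control apart from the oligonucleotide. The study calls replicates of untreated cells and of its knockdown checks independent, but the sources used here do not say whether the ASO libraries sequenced came from separate cultures. The p-values measure the spread between libraries, which may be technical.

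LINC00662 is a long noncoding RNA of chromosome 19. The study followed it as an RNA found near H3K9me3, the histone mark of silent heterochromatin that is written by enzymes such as SETDB1 and read by HP1 proteins. A gapmer ASO pairs with its target RNA and recruits RNase H1, which cuts the RNA strand. Because RNase H1 acts in the nucleus, an ASO can also act on introns before they are spliced out.

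The study lists 3 oligonucleotides against LINC00662 and 1 negative control, but the sources used here do not say which of the 3, or whether a mixture, was given to the cells sequenced here. They are shown because their matches in the genome are set beside the falls described below. In ASO-1 and ASO-2 the capitals mark bases that pair with one unbroken stretch of the LINC00662 locus. In ASO-3 all 20 bases pair with LINC00662, and the capitals mark the bases that also pair with a repeat found across the genome.
LINC00662-ASO-1: TGTAGTCTCTTATCTGCACC
LINC00662-ASO-2: ACTCTGTCTCAAATAACTtg
LINC00662-ASO-3: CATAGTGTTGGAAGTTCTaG
ASOXNC23 (control): ttctccgaacgtgtcacgtt

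The ASOs were placed on GRCh37, the build of the count tables (hg19), by searching chromosomes 1 to 22, X and Y for the reverse complement. LINC00662 (ENSG00000261824) lies on the minus strand at chr19:28175488-28284848. The target of ASO-1 is at chr19:28284662-28284681, within an exon in GENCODE v44 lifted to this build. The target of ASO-3 is at chr19:28281738-28281757, also within an exon. The best match of ASO-2, at chr19:28282794-28282813, crosses an exon boundary and has the substitutions T19A and G20A (ASO base, position from its 5′ end, base of the site written in the sense of the ASO). In spliced transcripts ASO-2 matched in full, in 4 of 80 LINC00662 transcripts, as ASO-1 did in 40 and ASO-3 in 3. No spliced transcript of another gene matched any of the 3 in full.

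The genome as a whole set ASO-3 apart. ASO-1 and ASO-2 each had 4 sites with 0 or 1 mismatch, and the control ASO had 0. ASO-3 had 112 perfect sites and 9110 sites with 1 mismatch, of which 97.2% carried the same substitution, A19G. The matched sequence is part of the second open reading frame of LINE-1, a retrotransposon with very many copies in the human genome, which lie mostly between genes and within introns. A repeat annotation was not used here. In spliced transcripts only 15 other genes held an ASO-3 site with up to 1 mismatch.

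LINC00662 itself was at 1.97, 1.23 and 1.53 CPM (library-size scaled counts, with TMM factors) in the LINC00662 ASO libraries, from 30, 18 and 21 counts. With the control ASO it was at 12.4, 14.3 and 13.2 CPM, and in the RNA-seq control at 14.2, 9.55 and 12.3 CPM. The targeted libraries did not overlap any other group, and the mean was 11.8% of that with the control ASO. The log2 fold change was -3.002 against the control ASO (standard error 0.20, adjusted p 1.04e-12), -2.90 against the RNA-seq control and -3.44 against the other targeting ASOs, by edgeR's quasi-likelihood test with Benjamini-Hochberg adjustment, as for every adjusted p below. The other 2 targeted lncRNAs check the labels of their own ASO groups, but not those of the control ASO or the RNA-seq control. SETD5-AS1 was at 3.98 to 4.74 CPM with its own ASO against 28.1 to 29.3 CPM with the LINC00662 ASO, and LINC00641 was at 0.917 and 1.93 CPM with its own ASO against 33.2 to 38.6 CPM. With the control ASO SETD5-AS1 was at 52.6 to 53.4 CPM. Its log2 fold change with the LINC00662 ASO was -0.83 there, which was called, and -0.08 against the RNA-seq control, which was not.

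Library totals were 13533066 to 15023098 counts with the LINC00662 ASO, 11641275 to 13713968 with the control ASO and 12109803 to 15330874 in the RNA-seq control. All 9 markers of HEK293T, among them VIM, KRT8, IRS4 and NEFM, were detected in each of these 3 groups. Their summed level was 2250 to 2390 CPM with the LINC00662 ASO, 2380 to 2550 CPM with the control ASO and 2990 to 3150 CPM in the RNA-seq control. Of 11 markers of other cell types found in the tables, PTPRC, CD3E, COL1A2, ALB, VIL1, CEACAM5 and MYH6 stayed under 1 CPM in every one of these 9 libraries, while COL1A1 (39.4 to 71.9 CPM) and CDX2 (25.7 to 67.9 CPM) did not. Their summed level was 72.4 to 81.9 CPM with the LINC00662 ASO, 137 to 151 CPM with the control ASO and 88.3 to 100 CPM in the RNA-seq control, with CD3E and CEACAM5 at 0 throughout, and its part in the results was not tested. In bulk RNA, fewer cells of a type and less RNA per cell cannot be told apart.

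The choice of reference decided most calls. Against the control ASO, 2159 of 18562 tested genes (11.6%) were higher and 2466 (13.3%) lower with the LINC00662 ASO, where a call needed an adjusted p below 0.05 and a change of 0.75 or more on the log2 scale. Against the RNA-seq control, 5.95% of 18382 genes were higher and 11.3% lower. Of the 4625 genes called against the control ASO, 997 (21.6%) were called in the same direction against the RNA-seq control, and 196 in the opposite direction. The falls held more often than the rises: 760 of 2466 falls held (30.8%) and 237 of 2159 rises (11%). As shares of the 17989 genes tested in both comparisons these were 4.22% and 1.32%. Of the falls, 235 had too few counts for a test against the RNA-seq control, against 0 of the rises. Those falls could not hold and are counted as not held. Both comparisons share the LINC00662 ASO libraries.

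The median fold changes show the same asymmetry. The 2159 rises had a median log2 fold change of 1.10 against the control ASO, but 0.11 against the RNA-seq control and 0.19 against the other targeting ASOs. The 2466 falls had medians of -1.29, -0.38 and -0.38, each over the falls tested in that comparison. The control ASO itself differed from the RNA-seq control at 6019 of 18519 genes (32.5%), 16.2% higher and 16.3% lower, more than the 3162 genes (17.2% of those tested) by which the LINC00662 ASO did. What set the control ASO libraries apart was not tested.

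**Figure D1:**
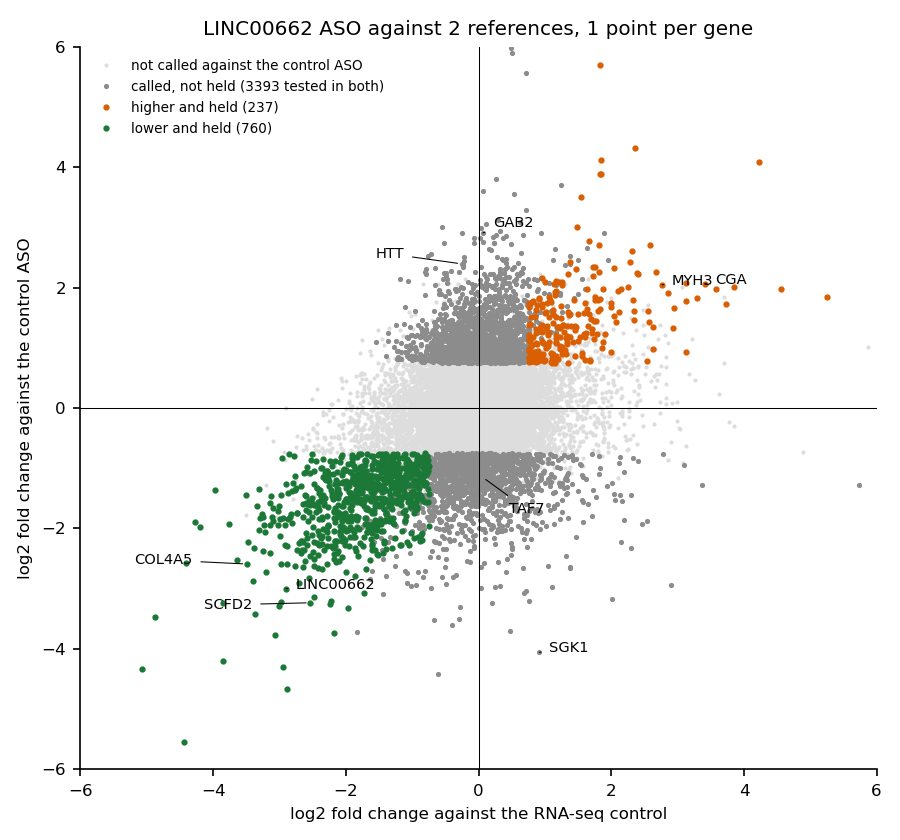
Log2 fold change of the LINC00662 ASO against the control ASO (vertical axis) and against the RNA-seq control (horizontal axis), 1 point per gene tested in both (17989 genes, 1 of them outside the range plotted). Most called genes (grey, 3393) lie in a vertical band near 0 on the horizontal axis, while the 760 held falls (green) and 237 held rises (orange) lie in the corners.

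Single genes are given next, and the first were picked as changes that did not hold. Each had a log2 fold change against the RNA-seq control of opposite sign or under 0.25 in size. Among such genes they had the largest changes against the control ASO. The condition fixed this pattern in advance, so they are examples only. SGK1, a kinase induced by glucocorticoids and growth factors, was at 7.15, 6.28 and 5.40 CPM with the LINC00662 ASO and 108, 112 and 110 CPM with the control ASO, a log2 fold change of -4.06 (standard error 0.10, adjusted p 3.1e-20). In the RNA-seq control it was at 3.73, 3.09 and 3.28 CPM, and in the 5 other ASO libraries at 4.15 to 5.88 CPM. Only the control ASO libraries were high, but against the RNA-seq control SGK1 was called higher with the LINC00662 ASO (log2 fold change 0.92). WDR74, a ribosome biogenesis factor, was at 33.6 to 38 CPM with the LINC00662 ASO, 286 to 328 CPM with the control ASO and 21.1 to 23.7 CPM in the RNA-seq control. IER5L and PHLDA2, an imprinted gene that restrains placental growth, had log2 fold changes of -2.99 and -2.65 against the control ASO and of 0.03 and 0.04 against the RNA-seq control.

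Rises picked in the same way had the mirror pattern. HTT, the gene of huntingtin, was at 237, 254 and 244 CPM with the LINC00662 ASO and 47.4, 46.7 and 51.8 CPM with the control ASO, but at 306, 268 and 308 CPM in the RNA-seq control. Its log2 fold change was 2.40 against the control ASO and -0.25 against the RNA-seq control. GAB2, an adaptor of receptor tyrosine kinases, rose by 2.91 on the log2 scale against the control ASO and was at 29.3 to 32.3 CPM with the LINC00662 ASO and 29.1 to 29.7 CPM in the RNA-seq control. RRAGD, a Rag GTPase of the lysosomal mTORC1 pathway, and USH1C, a scaffold of sensory hair bundles, rose by 2.83 and 2.34 against the control ASO, with -0.06 and -0.24 against the RNA-seq control. The most abundant called genes did not hold either. TCOF1, needed for ribosomal RNA transcription, averaged 1261 ± 59.2 CPM (SD, n = 3) with the LINC00662 ASO, 312 ± 27.9 CPM with the control ASO and 1177 ± 117 CPM in the RNA-seq control, and PRKDC, PABPC1 and SNRNP200 likewise had log2 fold changes of 0.92 to 1.11 against the control ASO and of -0.08 to -0.02 against the RNA-seq control. BRD2, a bromodomain reader of acetylated histones, was at 779 to 863 CPM against 1670 to 1880 CPM with the control ASO and 957 to 1090 CPM in the RNA-seq control. The other most abundant falls were the mitochondrial MT-RNR2, MT-RNR1 and MT-ND6, at -0.80, -1.15 and -1.28 on the log2 scale against the control ASO. Against the RNA-seq control they were at -0.31, -0.04 and -0.28.

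The study shows TAF7, a subunit of the TFIID complex, as its example for the LINC00662 ASO, so TAF7 was not chosen independently of these samples. PGBD5, a domesticated transposase gene, is its example for the SETD5-AS1 and LINC00641 ASOs, which were set against the same control ASO. TAF7 was at 136, 129 and 126 CPM with the LINC00662 ASO and 297, 306 and 301 CPM with the control ASO (log2 fold change -1.15, standard error 0.065, adjusted p 7.15e-14). It was at 136, 116 and 127 CPM in the RNA-seq control and at 107 to 150 CPM in the other ASO libraries, and the LINC00662 ASO libraries overlapped both. Its log2 fold change was 0.06 against the RNA-seq control (adjusted p 0.581) and 0.08 against the other ASOs (adjusted p 0.428). PGBD5 was at 16.6, 17.4 and 18.4 CPM, against 8.02, 6.68 and 7.60 CPM with the control ASO and 12, 13.5 and 13.3 CPM in the RNA-seq control. Its log2 fold change of 1.29 against the control ASO became 0.44 against the RNA-seq control, short of the fold threshold, and 0.12 against the other ASOs, whose range of 12.6 to 21.8 CPM held all 3 LINC00662 ASO libraries.

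**Figure D2:**
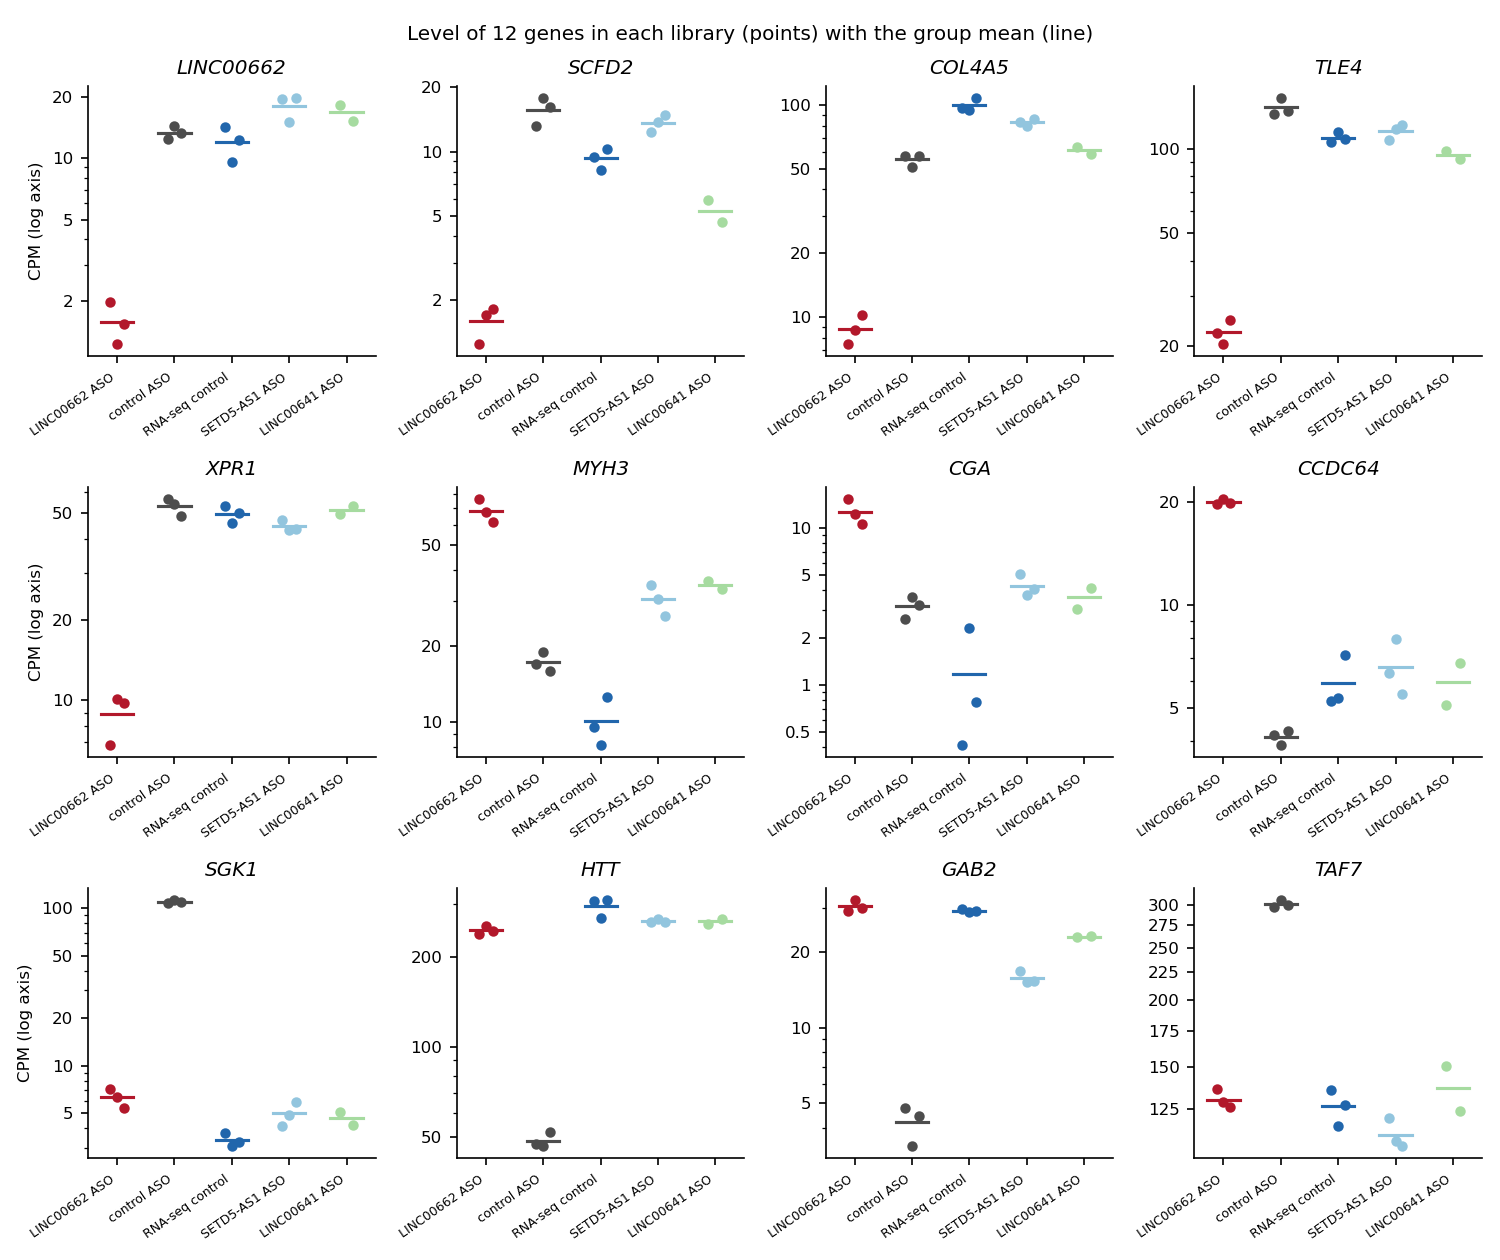
CPM on a log axis for 12 genes in each of the 14 libraries, with points for libraries and lines for group means. Apart from LINC00662 and TAF7, the genes shown were picked by their fold changes. The 3 LINC00662 ASO libraries are the lowest of all 14 for LINC00662, SCFD2, COL4A5, TLE4 and XPR1 and the highest for MYH3, CGA and CCDC64, with MYH3 and SCFD2 also differing among the other groups, whereas SGK1, HTT, GAB2 and TAF7 are set apart in the 3 control ASO libraries.

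Against all 3 references together, 627 genes were lower (3.51% of the 17851 tested in each) and 97 were higher (0.543%). Against the other targeting ASOs alone the shares were 7.32% lower and 2.38% higher (9.7% in either direction), out of 18409 genes. 

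Among genes averaging 100 counts or more, the 10 largest held falls were SCFD2, TMEM38B, ZDHHC21, COL4A5, TLE4, WDR41, ACER3, BIRC2, XPR1 and CCDC132. SCFD2, a Sec1-family trafficking protein, was at 1.25, 1.71 and 1.82 CPM against 13.2, 17.8 and 16.2 CPM with the control ASO and 9.46, 8.14 and 10.3 CPM in the RNA-seq control (log2 fold changes -3.24 and -2.54). COL4A5, a collagen IV chain of basement membranes, was at 7.48, 8.74 and 10.2 CPM against 57.4, 51.0 and 57.6 CPM and 97.1, 94.2 and 108 CPM (-2.59 and -3.49). TLE4, a Groucho co-repressor, was at 22.1, 20.3 and 24.6 CPM against 133, 151 and 136 CPM and 106, 115 and 108 CPM (-2.59 and -2.28). In each of these 3 genes the LINC00662 ASO libraries lay below all 11 others. Their choice required no overlap with the control ASO and a call against the RNA-seq control, so that part was fixed in advance.

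The other 7 did not share a pathway by their known roles. TMEM38B is an ion channel of the endoplasmic reticulum, ZDHHC21 a palmitoyltransferase, WDR41 a partner of C9ORF72, ACER3 a ceramidase, BIRC2 an inhibitor of apoptosis, XPR1 a phosphate exporter and CCDC132 a subunit of an endosomal recycling complex. Their log2 fold changes ran from -2.72 to -2.47 against the control ASO, from -2.88 to -1.63 against the RNA-seq control and from -2.86 to -1.74 against the other ASOs. XPR1, for example, was at 6.82, 10.1 and 9.77 CPM against 56.4, 54.0 and 48.6 CPM with the control ASO and 53.2, 45.8 and 50.3 CPM in the RNA-seq control.

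All 10 held an ASO-3 sequence match in an intron. Each of the 10 genes held at least 1 site with up to 1 mismatch on its own strand, so that its unspliced RNA carries the target, and by the annotation used every such site was intronic. SCFD2 held 5, WDR41 4, XPR1 3, COL4A5, TLE4, ZDHHC21 and ACER3 2 each, and TMEM38B, BIRC2 and CCDC132 1 each. Examples are chr4:54210242-54210261 in SCFD2 (minus strand), chrX:107696073-107696092 in COL4A5, chr9:82223000-82223019 in TLE4 and chr11:102241915-102241934 in BIRC2 (plus strand). All 4 differ from the ASO by A19G alone, the position in lower case in the sequence of ASO-3 above. The target in LINC00662 is shown as its RNA reads 5′ to 3′, in capitals since all bases pair.
LINC00662 target of ASO-3: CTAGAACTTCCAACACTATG

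The search was then extended to every tested gene. It was added after the falls had been seen, and a match describes the sequence only. LINC00662 and mitochondrial genes were left out. Of the 626 other genes lower against all 3 references, 480 (76.7%) held an ASO-3 site with up to 1 mismatch on their own strand. Among genes not called against the control ASO the share was 4.20% of 13917, and among all 18535 tested genes 6.46%. Falls against the control ASO that did not hold, with those not tested against the RNA-seq control among them, had it in 4% of 1700 genes. Rises that held had it in 1.69% of 237. The 133 falls that held against both the control ASO and the RNA-seq control, but not against the other ASOs, had it in 8.27%.

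On the opposite strand, where a site is not in the RNA of the gene, the share was 21.2% among the 626 falls and 3.43% among genes not called. Genes with falls were long, with a median span of 120000 bases against 25600 for genes not called. The part of gene length in the opposite-strand share was not tested. Of the 146 genes lower against all 3 references without an own-strand site, 8 held one on the opposite strand.

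**Figure D3:**
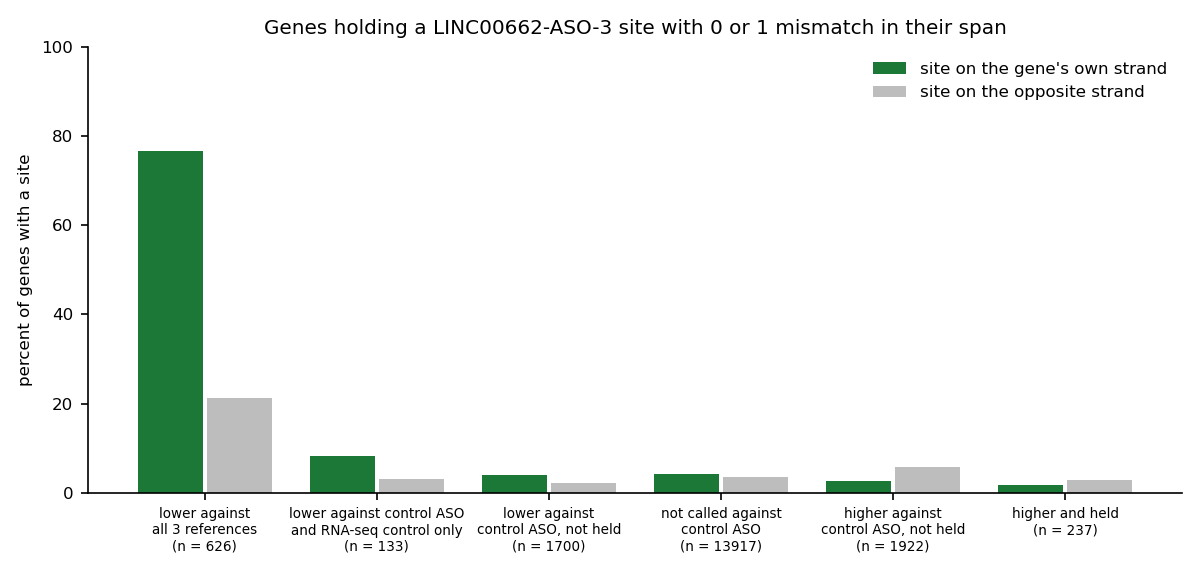
Percent of genes whose span holds an ASO-3 site with 0 or 1 mismatch, on the own strand of the gene (green) and on the opposite strand (grey), by how the gene was called. The 626 genes lower against all 3 references reach 76.7% on the own strand, and no other class exceeds 8.27%.

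Read from the sites to the genes, the strand of the site separated the fold changes. Of 1159 genes with an own-strand site that were tested in all 3 comparisons, 41.4% were lower against all 3 references, 67.7% lower against the RNA-seq control, 63.6% lower against the other ASOs and 46.3% lower against the control ASO. Of 406 genes with sites on the opposite strand alone the shares were 1.97%, 8.87%, 5.17% and 5.17%. Of 16259 genes with neither they were 0.849%, 6.97%, 3.18% and 10.1%. The median log2 fold change against the other ASOs was -1.29, 0.10 and 0.03 in these 3 classes, and against the RNA-seq control -1.36, 0.07 and 0.05. Against the control ASO the medians were -0.76, 0.36 and 0.05.

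The separation was seen at each gene length. Among genes spanning 50 to 150 kb, 361 with an own-strand site had a median of -1.48 against the other ASOs, 164 with opposite-strand sites alone 0.13 and 3605 with neither 0.06. At 20 to 50 kb the medians were -1.53 (64 genes), 0.18 (29 genes) and 0.03 (4212 genes), and above 150 kb -1.11 (726 genes), 0.05 (210 genes) and 0.11 (1062 genes). Under 20 kb only 8 genes held an own-strand site.

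Library by library, the 361 genes of 50 to 150 kb with an own-strand site had a median log2 level, relative to the mean of the RNA-seq control, of -1.38, -1.31 and -1.23 in the LINC00662 ASO libraries. It was -0.27, -0.18 and -0.20 in the control ASO libraries and between -0.02 and 0.05 in the 8 others. The 164 genes with opposite-strand sites alone were at 0.15 to 0.17 in the LINC00662 ASO libraries. The 3605 genes with neither were at 0.06 to 0.08.

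**Figure D4:**
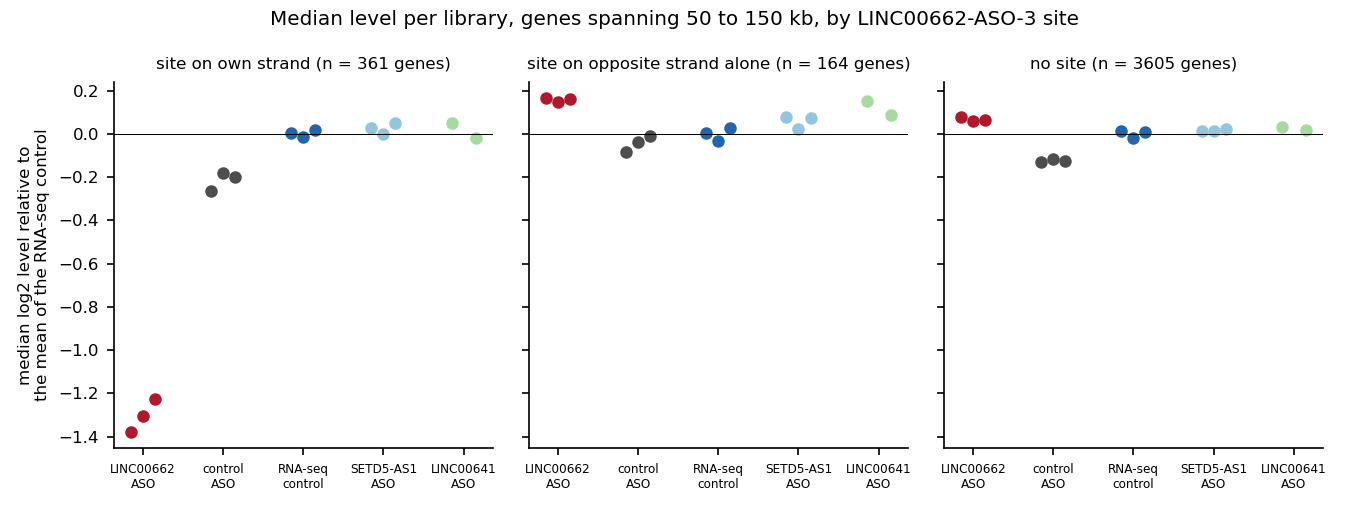
Median log2 level of genes spanning 50 to 150 kb in each of the 14 libraries, relative to the mean of the RNA-seq control, for genes with an own-strand ASO-3 site, with opposite-strand sites alone and with none. The LINC00662 ASO libraries are at -1.38 to -1.23 in the first panel and above 0 in the other panels.

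Against the RNA-seq control and the other ASOs, the fold changes also followed how close the best own-strand match was. Against the RNA-seq control the median was -2.02 for the 17 genes with a perfect site, -1.35 for the 1142 whose best site had 1 mismatch, -0.35 for 456 with 2, 0.07 for 431 with 3 and 0.05 for the 15778 with none within 3 mismatches. Against the other ASOs the order was the same, at -2.02, -1.29, -0.34, 0.04 and 0.03. Against the control ASO the medians were -0.86, -0.75, -0.01, 0.29 and 0.05. The median span also differed between these classes, from 240000 bases with a perfect site to 22600 with none. By number of sites, the median against the RNA-seq control was -1.29 with 1 site (804 genes), -1.62 with 2 (233 genes), -1.62 with 3 or 4 (97 genes) and -1.97 with 5 or more (25 genes). Against the control ASO the medians were -0.71, -0.85, -0.68 and -1.07, and against the other ASOs -1.26, -1.40, -1.24 and -1.63, so the order was not steady with either. The median span of these classes also went from 160000 to 824000 bases. For genes with a single site, the median against the RNA-seq control was also taken by its place, with the span cut into 4 equal parts. It was -1.43 nearest the start, -1.41 and -1.15 in the middle stretches and -1.23 nearest the end. Not every such gene moved: 422 of the 1159 were not called lower against the other ASOs.

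**Figure D5:**
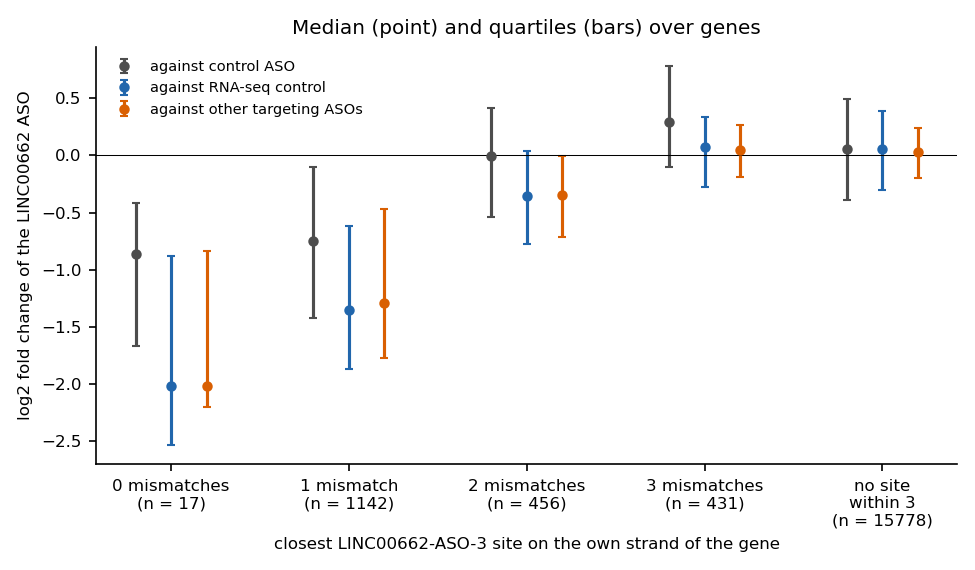
Log2 fold change of the LINC00662 ASO against each reference, as the median (point) and quartiles (bars) over genes, by the number of mismatches in the closest ASO-3 site on the own strand of the gene. Medians against the RNA-seq control go from -2.02 at 0 mismatches to 0.07 at 3.

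Nearly all of these sites were intronic: of 751 sites in the 480 genes, 744 (99.1%) were in introns and 2 in exons, and 5 lay in genes without a match in the lifted annotation. The tables appear to count whole gene spans, so reads from introns and exons cannot be told apart. The same search with ASO-1 found 2 tested genes with an own-strand site of up to 2 mismatches and no ASO-3 site. With ASO-2 it found 22, with a median log2 fold change of 0.13 against the other ASOs. The control ASO had none. Whether ASO-3 was given to these cells and whether it pairs with these introns was not tested.

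Rises that held were fewer, and those named here were picked by the same conditions as the held falls. CCDC64, a dynein adaptor, was at 19.8, 20.4 and 19.9 CPM against 4.16, 3.90 and 4.29 CPM with the control ASO and 5.23, 5.33 and 7.15 CPM in the RNA-seq control (log2 fold changes 2.34 and 1.76). MYH3, the embryonic myosin heavy chain, was at 76.0, 67.4 and 62.0 CPM against 17, 19 and 15.9 CPM and 9.55, 8.14 and 12.6 CPM (2.05 and 2.76). CGA, the shared alpha subunit of the glycoprotein hormones, was at 15.2, 12.2 and 10.6 CPM against 2.62, 3.64 and 3.22 CPM and 0.415, 2.32 and 0.773 CPM (2.07 and 3.41). All 3 were also higher than with the other targeting ASOs, by 1.68, 1.08 and 1.69 on the log2 scale. With those ASOs MYH3 was at 26.2 to 36.1 CPM, above both the control ASO and the RNA-seq control, and CGA at 3.06 to 5.07 CPM, overlapping the control ASO.

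CCSAP, a centriole and spindle protein, and CHGB, a granin of secretory vesicles, also rose against all 3 references, with log2 fold changes of 1.95, 1.16 and 0.80 for CCSAP and 1.93, 1.16 and 0.81 for CHGB in the order control ASO, RNA-seq control, other ASOs. So did MARVELD3, a tight junction protein, and the pseudogene SDAD1P1, which is close in sequence to its parent gene. ELOVL7, a fatty acid elongase, PTPRN2, a protein of dense-core vesicles, and SUSD1 rose against the first 2 references but reached only 0.50 to 0.59 against the other ASOs.

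For the gene lists, the counts against the control ASO stand beside shares of 11.6% higher and 13.3% lower over all tested genes. Of all genes called against the control ASO, 30.8% of the falls and 11% of the rises held. Immediate early genes and feedback inhibitors of growth factor signalling differed most from the background. Of 17, 14 were lower against the control ASO and 1 higher, with a median log2 fold change of -1.5 (all tested genes: 0.00), and none of the 15 held. EGR1, a zinc finger transcription factor, was at 11.5, 9.63 and 6.78 CPM against 44.9, 40.7 and 47.4 CPM with the control ASO and 2.41, 6.53 and 8.31 CPM in the RNA-seq control. Against the RNA-seq control the list went the other way, with 5 of 17 genes higher, none lower and a median of 0.60. Higher against the other ASOs were 5 as well, with EGR1 in place of FOS. FOS, FOSB, EGR2 and EGR3 were called in opposite directions, at -0.76, -2.46, -1.24 and -1.54 against the control ASO and at 1.71, 1.32, 1.07 and 2.16 against the RNA-seq control. SPRY2, a feedback inhibitor of receptor kinases, and DUSP5, a phosphatase of ERK, fell by 2.06 and 1.71 on the log2 scale against the control ASO, with -0.25 and 0.35 against the RNA-seq control. The list had a median of 1.87 in the control ASO against the RNA-seq control.

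The small nucleolar RNA host genes behaved alike: 9 of 13 were lower against the control ASO (median -0.94) and none held. GAS5 was at 54.7 to 63.4 CPM against 187 to 211 CPM with the control ASO and 33.9 to 41.4 CPM in the RNA-seq control, and SNHG11 was at 6.05 to 9.12, 45.5 to 50.7 and 7.23 to 9.21 CPM. Of 17 cadherin genes 7 were higher (median 0.85) and 1 lower, and none held. CDH4 had the largest change, 3.12 on the log2 scale against the control ASO and 0.29 against the RNA-seq control. Of 15 hypoxia genes 6 were higher, and of 20 receptor tyrosine kinase genes 5, and none of these held. Of 21 lysosome genes 3 were higher, near the 11.6% of all tested genes, and none held. Since only 11% of all called rises held, nothing is read from the lack of held rises in these lists.

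The H3K9 methylation list holds methyltransferases, HP1 proteins, the HUSH complex and demethylases. Of its 20 genes 3 were higher and 1 lower against the control ASO (median 0.24), where 11.6% and 13.3% of all tested genes were, so the list gives no result of its own at these counts. None was called against the RNA-seq control in the same direction (median -0.02) or in either direction against the other ASOs (median -0.01). EHMT1, which writes H3K9 mono- and dimethylation, was at 160 to 172 CPM against 75.2 to 81.9 CPM with the control ASO and 159 to 175 CPM in the RNA-seq control. KDM4C, a demethylase, and TRIM28, the co-repressor that brings SETDB1 to chromatin, had log2 fold changes of 1.32 and -0.89 against the control ASO and of 0.11 and -0.13 against the RNA-seq control. Of 180 chromosome 19 zinc finger genes, 24 were higher and 24 lower against the control ASO, and 1 rise and 3 falls held. ZNF227, ZNF420 and ZNF567, the falls, each had an own-strand ASO-3 site.

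Few falls held within the other lists. Of 16 TFIID genes, TAF7, TAF13 and TAF4B were lower against the control ASO and only TAF4B held, at 16.8 to 18.96 CPM against 51.3 to 51.6 and 35.5 to 36.9 CPM. TAF4B held 1 own-strand ASO-3 site and TAF7 and TAF13 none. CENPE, a mitotic kinesin, TYMS, the thymidylate synthase, DNAJC3, a co-chaperone of the endoplasmic reticulum, and OAS3, an interferon-induced sensor of double-stranded RNA, were lower against all 3 references, by 1.00, 1.13, 1.36 and 2.38 against the control ASO, and each held 1 such site. In the interferon list as a whole, 5 of 14 genes were lower and 2 higher against the control ASO, of which OAS3, TMEM173 and, as a rise, IFIH1 held.

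Of 12 RNAs that the study names in its Chrom-seq work, which used other samples, 5 were lower and 1 higher against the control ASO. The list was drawn up here with earlier results of these data known, so it is no independent evidence. ANKRD36, H19 and AC004158.2 were lower against all 3 references, and 2 of these 3 held an own-strand site. H19, the imprinted RNA of chromosome 11, held none and was at 3.79 to 5.46 CPM against 10.6 to 13.03 CPM with the control ASO and 11.8 to 14.7 CPM in the RNA-seq control. BCYRN1, which is close in sequence to Alu repeats, rose by 0.78 on the log2 scale, with overlapping groups (8.06 to 15.1 CPM against 3.62 to 11.4 CPM). In the RNA-seq control it was at 1.55 to 3.16 CPM, below every LINC00662 ASO library, and the rise of 2.53 there was called, the only rise of the list that held. In the stress lists, HSPA1A, an inducible chaperone that has a near-identical copy, was at 13.6, 21.3 and 11.9 CPM against 5.00 to 7.20 and 6.25 to 9.59 CPM, a rise that held against all 3. The copy, HSPA1B, went the other way, with log2 fold changes of -0.93 against the control ASO and -1.42 against the RNA-seq control, both called, so how reads were split between them is uncertain. DUSP1, a glucocorticoid target and MAP kinase phosphatase, was at 43.5 to 53.3 CPM against 22.25 to 26.8 and 18.3 to 23.9 CPM and held against both, with 0.68 against the other ASOs.

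Among ASO-binding proteins 2 of 14 were lower against the control ASO and none held. RNASEH1, which encodes the enzyme that gapmers recruit, was at 59.4 to 66.5 CPM against 154 to 162 CPM with the control ASO and 53.1 to 59.0 CPM in the RNA-seq control. SSB, the La protein, had log2 fold changes of -1.05 and -0.31. In the remaining lists the counts against the control ASO, higher and lower, were 2 and 5 of 16 ATF4 targets, 1 and 2 of 13 unfolded protein response genes, 1 and 4 of 11 heat shock genes, 1 and 1 of 14 p53 targets, 1 and 1 of 9 glucocorticoid targets, 1 and 0 of 20 cholesterol genes, 0 and 2 of 14 replication genes, 1 and 3 of 13 mitosis genes, 1 and 0 of 7 Hippo targets, 1 and 2 of 8 TGF-beta and BMP targets, 1 and 2 of 8 Wnt targets, 1 and 0 of 5 Notch targets, 0 and 3 of 9 protocadherins, 1 and 6 of 78 ribosomal proteins and 0 and 1 of 13 mitochondrial genes. Lists of this size with 1 or 2 calls each way are near the shares over all tested genes (11.6% higher and 13.3% lower), and nothing is read from them. ATF4 targets, heat shock genes, mitosis genes and protocadherins were lower in a larger share than that. Ribosomal proteins were called in a smaller share each way. Of the falls in the remaining lists HSPA1B, CENPE, DNAJC3, TYMS and ZMAT3, a p53 target with an own-strand ASO-3 site, held. Of the rises in them CEBPB held, besides HSPA1A and DUSP1 given above.

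Near LINC00662 little was measurable. Of 23 genes annotated within 1 Mb, 2 had enough counts to test against the control ASO. SLC25A1P5, a pseudogene, was at 0.853, 0.683 and 1.09 CPM against 3.39, 3.47 and 2.68 CPM with the control ASO, and at 0.129 to 0.351 CPM in the RNA-seq control, so the call (log2 fold change -1.79) turned to 1.70 with the reference. AC005307.3, a noncoding gene with 1 own-strand ASO-3 site, was at 0.546 to 0.722 CPM, 0.536 to 0.781 CPM with the control ASO and 2.41 to 2.64 CPM in the RNA-seq control. Its log2 fold change was 0.00 against the control ASO and -1.94 against the RNA-seq control.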

How the data were processed

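Per the labels, reads were cleaned with fastp 0.23.1, aligned to hg19 with HISAT2 2.1.0 and counted per gene with featureCounts 2.0.1. The authors deposited raw counts for 57820 genes, and the strand setting is not given in the sources used here. In the tables the gene length equals its span, so introns may be counted, and overlapping, antisense and near-identical genes are uncertain.

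Counts were fitted as deposited with edgeR 4.0.16 in R 4.3.3 (TMM, quasi-likelihood, Benjamini-Hochberg), 1 fit per comparison. Genes entered when the summed count exceeded 3 per library, and a call required an adjusted p below 0.05 with a change of 0.75 or more on the log2 scale. The other ASOs entered as the mean of their 2 groups. Levels are CPM with TMM factors over 14 libraries. The procedure was tested on simulated data first. Total counts ranged from 11619315 to 15330874, and precision judged from such depth covers counting error only, since molecular identifiers were not used here. Of 13 replicate pairs none was identical.

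Named genes are the targets, TAF7 and PGBD5, and the 10 largest rises and falls that held (mean of at least 100 counts, no overlap between groups). By the same criteria the 4 largest each way with an opposite sign, or under 0.25 in size, against the RNA-seq control were added. The 4 most abundant called each way and the 5 largest each way held against all 3 references followed. Up to 4 called members per list and genes within 1 Mb complete them. ZNF420, TMEM173, AC004158.2, HSPA1B, CEBPB, ZMAT3, FOS, EGR2 and EGR3 were named after their values were seen. Members and lists were chosen with earlier results of these data known.

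ASO sequences were read from the supplement of the study and searched on GRCh37 with up to 3 mismatches. A site counted at up to 1 mismatch. Per-library medians used a pseudocount of 0.5 CPM. Alternatives were DESeq2 1.42.0, other normalizations and filters, a replicate block, other fits and leaving out each library.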

Additional observations from a re-analysis of the deposited data

How the results depend on the processing

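The number of genes called against the control ASO was 4625 and lay between 4186 and 4750 under DESeq2, RLE, library size alone, no filter, filterByExpr and all 4 ASO groups in 1 fit, and between 4357 and 4508 when each library was left out. A fold threshold of 1 left 3089. The count held against both references was 997, with 903 under DESeq2 and 911 to 995 without each library. Without each library the other counts were 2826 to 3217 against the RNA-seq control and 1507 to 1762 against the other ASOs, where dropping 1 of the 2 LINC00641 libraries assumes the lone one varies like the rest. The SETD5-AS1 ASO alone as reference gave 2039 calls and the LINC00641 ASO alone 1544. For LINC00662 itself the log2 fold change ran from -3.20 to -2.85 without each library.

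Same-numbered libraries of the LINC00662 and control ASO did not deviate together (correlations of -0.01, -0.07 and -0.01), so the numbers were not taken as pairs. The replicate block gave 4506 calls against the control ASO, 3032 against the RNA-seq control and 962 held, and -3.003 for LINC00662.

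Of 999 recomputed values for 111 named genes, 978 kept direction and call and 16 lost the call, among them BCYRN1 under DESeq2. AC005307.3, near 0 against the control ASO, changed sign to 0.03663 with library size alone and 0.00135 with the block, and ran from -0.1331 to 0.1072 without each library. The share of falls with an own-strand ASO-3 site, 76.7%, was 1.28% for perfect sites, 80.8% with up to 2 mismatches and 81.3% with up to 3, alternatives chosen after seeing the data. Depth limits LINC00662 itself, at 18 to 30 counts per targeted library.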

Other observations

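By chromosome, the share of tested genes lower against all 3 references was highest, among chromosomes with over 100 tested genes, on X (7.92% of 606) and 4 (6.42% of 717) and lowest on 20 (0.866% of 462), 21 (1.09% of 184) and 19 (1.10% of 1276), the chromosome of LINC00662.

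Genes without an ASO-3 site on either strand also differed by length against the control ASO. Their median log2 fold change was -0.14 under 20 kb (7380 genes), 0.04 at 20 to 50 kb, 0.24 at 50 to 150 kb and 0.61 above 150 kb. Against the RNA-seq control the medians of the same genes were 0.01, 0.08, 0.09 and -0.02, and in the control ASO against the RNA-seq control 0.21, 0.07, -0.13 and -0.63. The part of gene length in the calls against the control ASO was not tested beyond these values.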
